A study of Mus musculus with 10 samples.

Results

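The receptors of the BMP and TGF-beta family were examined in whole mouse liver. The 10 genes, taken by name, were the type I receptor genes Acvrl1, Bmpr1a, Acvr1 and Tgfbr1, the type II receptor genes Bmpr2, Acvr2a, Acvr2b and Tgfbr2, and the co-receptor genes Eng and Tgfbr3. All 10 were present among the 55385 gene IDs of the deposited tables, and all 10 passed the filter on low counts. RNA-seq of frozen, homogenised whole liver gave 5 libraries labelled Alk1-HEC-KO (genotype label KO) and 5 libraries labelled Control (genotype label Ctrl). Alk1 is another name of Acvrl1. The labels do not spell out HEC and give no Cre driver, deleted exons, age or sex, and they do not state whether each library is a separate animal, so p-values measure only the spread between these libraries. Acvrl1 itself was not lower in the libraries labelled Alk1-HEC-KO. The genotype of these libraries is therefore given as a label throughout, and each direction below rests on that label.

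Signals of the BMP and TGF-beta family pass through complexes of type I and type II receptors. Ligand binding brings the types together, the type II kinase phosphorylates the type I receptor, and the type I kinase phosphorylates SMAD proteins, which enter the nucleus. ALK1, the protein of Acvrl1, is a type I receptor found mostly on endothelial cells. It binds BMP9 and BMP10 together with BMPR2 or an activin type II receptor, and endoglin, the protein of Eng, assists that binding. Loss-of-function mutations of the human ACVRL1 and ENG genes cause hereditary haemorrhagic telangiectasia, in which arteries connect directly to veins, also in the liver.

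A stretch of alternating glycines and serines in the GS domain, the segment that type II receptors phosphorylate, sets the type I receptors apart from the other members. The coding sequences below, from the GENCODE M21 transcripts of GRCm38, show it as the feature that tells the 4 type I genes from the 6 others. The capitals mark the 5 codons of glycine, serine, glycine, serine and glycine, with 12 bases on either side, and each is printed 5′ to 3′ on the coding strand.
Acvrl1: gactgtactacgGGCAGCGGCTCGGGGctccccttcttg
Bmpr1a: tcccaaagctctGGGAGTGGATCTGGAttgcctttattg
Acvr1: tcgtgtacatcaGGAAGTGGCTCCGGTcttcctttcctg
Tgfbr1: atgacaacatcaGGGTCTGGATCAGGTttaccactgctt

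The Acvrl1 stretch lies in exon 6 at chr15:101136143-101136181 (plus strand). That of Bmpr1a lies in exon 8 at chr14:34429656-34429694 (minus strand), and that of Acvr1 in exon 6 at chr2:58474219-58474257 (minus strand). The Tgfbr1 stretch runs over the junction of exons 3 and 4, so its ends at chr4:47393465-47396368 (plus strand) enclose an intron. No such run of 5 residues was found in the 4 type II receptors or the 2 co-receptors. Although the same amino acids are encoded, the 15 capital bases of Acvrl1 matched those of Acvr1 at 11 positions, those of Bmpr1a at 10 and those of Tgfbr1 at 8.

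Sequence likeness of this kind did not extend to 31 bases, the default word length by which kallisto, the quantification tool in the submitters' notes, assigns reads. No stretch of 31 bases was shared between the annotated transcripts of any 2 of the 10 receptors, and the longest stretch shared by the coding sequences of a pair was 20 bases, in Bmpr1a and Acvr1. Acvrl1, Bmpr1a, Acvr1, Acvr2a, Acvr2b and Eng also shared no 31-base stretch with any other annotated gene. Of the 31-base stretches of Tgfbr3, 4.1% occurred in 1 other gene, and for Tgfbr2, Bmpr2 and Tgfbr1 the shares found in other genes were 1.4%, 0.67% and 0.31%. All these comparisons were made on the transcript strand alone, so stretches shared with antisense transcripts were not examined.

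Library depth differed little, with 20.91 to 21.56 M (mega) estimated counts per library. Albumin, which marks hepatocytes, stood at 20686 to 45945 TPM in labelled knockout libraries and at 21119 to 45351 TPM in Control libraries. TPM is a unit of transcript abundance scaled by transcript length. Over all 12872 tested genes, 46 passed at an adjusted p under 0.05 (0.357%), 24 of them higher and 22 lower in labelled knockout libraries. Libraries stood apart in ways the labels do not name. The acute phase gene Saa1 was above 1000 TPM in labelled knockout libraries 4 and 5 and in Control library 4, and the immediate early gene Fos was above 20 TPM in Control libraries 1 and 2. The numbers in the deposited names also fall into 3 runs, of which the last holds labelled knockout libraries 2, 4 and 5 and no Control library. What such a run stands for is not stated in the labels.

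Eng was the most abundant receptor transcript in both groups. It averaged 14.7 ± 4.47 TPM in labelled knockout libraries and 12.9 ± 2.70 TPM in Control libraries (SD, n = 5 each), and it stood above Tgfbr2, the next in order, without overlap within either group. Tgfbr2, Bmpr1a, Tgfbr1, Acvr1, Acvr2a and Bmpr2 followed in that order in both groups, and the ranges of neighbours overlapped, with the exception of Acvr2a and Bmpr2 among labelled knockout libraries. The last places differed. Acvrl1 was eighth in labelled knockout libraries, before Acvr2b and Tgfbr3, and last in Control libraries, after Acvr2b and Tgfbr3, but the ranges of these neighbours overlapped in both groups. Summed by role, type I receptors came to 11.5 ± 2.42 TPM in labelled knockout libraries and 12 ± 2.32 TPM in Control libraries. Type II receptors came to 10.2 ± 3.05 TPM in labelled knockout libraries and 10.8 ± 3.22 TPM in Control libraries. The co-receptors, mostly Eng, came to 15.4 ± 4.63 TPM in labelled knockout libraries and 13.7 ± 2.88 TPM in Control libraries.

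**Figure D1:**
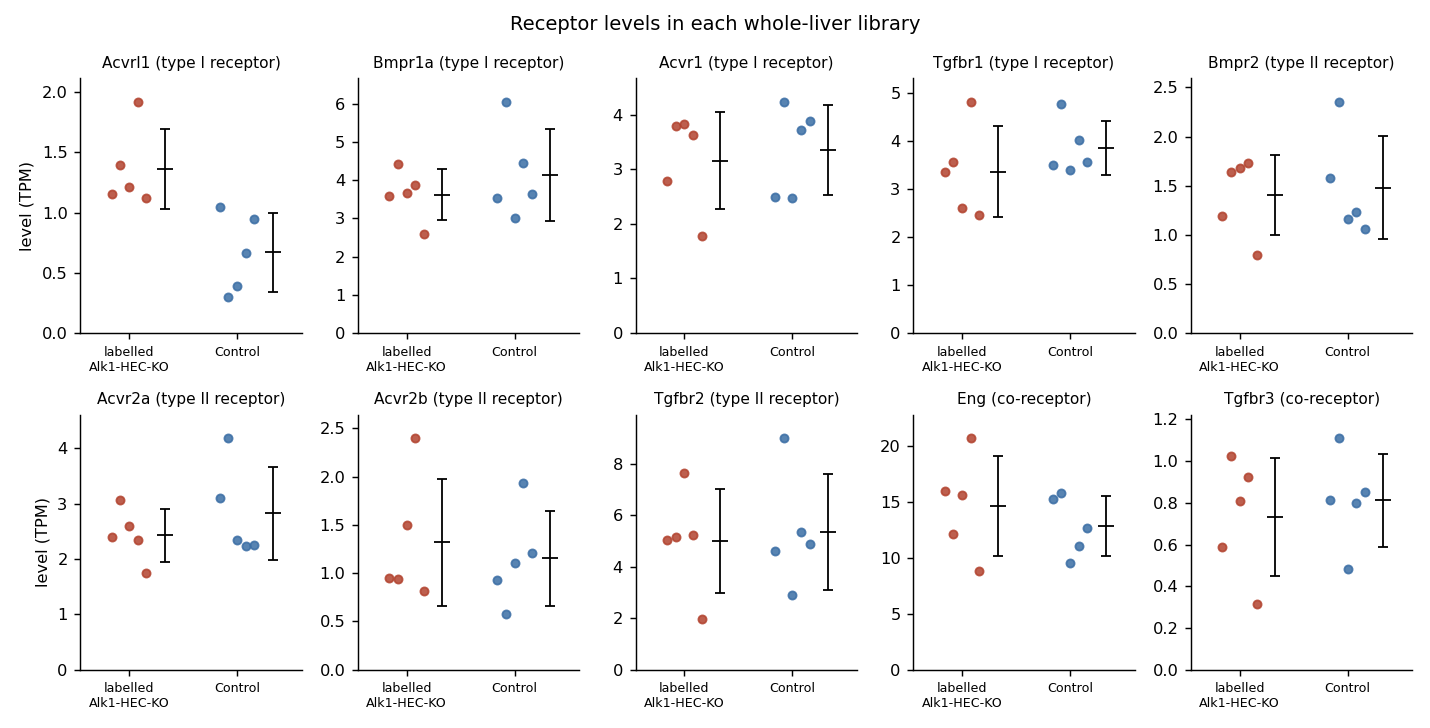
TPM (vertical axis, starting at 0) of each receptor in the 5 libraries labelled Alk1-HEC-KO (left of each panel) and the 5 Control libraries (right); points are libraries and bars the mean ± SD. Only in the panel of Acvrl1 do the groups not overlap, with 1.12 TPM as the lowest labelled knockout library and 1.05 TPM as the highest Control library.

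Acvrl1 (ENSMUSG00000000530.16, chr15:101128522-101145336, plus strand) had the lowest mean TPM of the 4 type I receptor genes examined in both groups. Its level was 1.15, 1.39, 1.22, 1.92 and 1.12 TPM in labelled knockout libraries 1 to 5, against 1.05, 0.30, 0.39, 0.66 and 0.95 TPM in Control libraries 1 to 5. Every labelled knockout library thus lay above every Control library in TPM, with labelled knockout library 4 highest and Control library 2 lowest. The means were 1.36 ± 0.331 TPM in labelled knockout libraries and 0.669 ± 0.331 TPM in Control libraries (SD, n = 5 each). The exact two-sided permutation p was 0.0079, which is the minimum for 5 against 5, and 0.489 when adjusted over all tested genes. Groups parted in this direction for 1.31% of all tested genes. The test on counts did not call the gene, at a log2 fold change of 0.99 ± 0.32 (SE; edgeR adjusted p = 0.336, from its quasi-likelihood test adjusted over all tested genes by Benjamini and Hochberg). It rested on 54 to 119 counts per labelled knockout library and 18 to 55 per Control library, and in log2 CPM (counts scaled to library size) the groups overlapped, while those of 1.68% of all tested genes did not. In the first run of names the log2 ratio of the group means was 0.78 (1 labelled knockout against 2 Control libraries) and in the second 0.86 (1 against 3). These are levels over all annotated transcripts of the gene in whole liver, and they do not show whether exons were deleted. A change in the number of cells of a type cannot be told apart from a change in RNA per cell.

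The other type I receptors did not pass the test and pointed lower. Bmpr1a encodes ALK3, a BMP receptor that hepatocytes need to make the iron hormone hepcidin. It ranged from 2.58 to 4.42 TPM in labelled knockout libraries and from 3.0 to 6.05 TPM in Control libraries, a log2 fold change of -0.25 (standard error 0.12, edgeR adjusted p = 0.60). Acvr1 encodes ALK2, which also transmits BMP signals. Its range was 1.77 to 3.82 TPM in labelled knockout and 2.47 to 4.24 TPM in Control libraries (-0.29, 0.16, edgeR adjusted p = 0.671). Tgfbr1 encodes ALK5, the type I receptor for TGF-beta. It lay at 2.46 to 4.83 TPM in labelled knockout and 3.39 to 4.77 TPM in Control libraries (-0.25, 0.17, edgeR adjusted p = 0.722). Groups overlapped for each of these genes, and 1 labelled knockout library of 5 lay above the Control mean for Bmpr1a and for Tgfbr1, and 3 of 5 for Acvr1.

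None of the 4 type II receptors passed either. Bmpr2, the type II partner of ALK1, lay at 0.79 to 1.73 TPM in labelled knockout libraries and at 1.06 to 2.36 TPM in Control libraries (log2 fold change -0.15, standard error 0.20, edgeR adjusted p = 0.863). Acvr2a and Acvr2b encode type II receptors that bind activins and also BMPs. The level of Acvr2a was 1.75 to 3.07 TPM in labelled knockout libraries and 2.24 to 4.18 TPM in Control libraries (-0.30, 0.16, edgeR adjusted p = 0.655). That of Acvr2b was 0.81 to 2.40 TPM in labelled knockout libraries and 0.58 to 1.93 TPM in Control libraries (0.01, 0.32, edgeR adjusted p = 0.996). Acvr2b had the fewest counts of the 10 genes after Acvrl1 in Control libraries, and its spread was the widest of the 10 among labelled knockout libraries, with a coefficient of variation of 49.7%. Tgfbr2, the receptor that first binds TGF-beta, ranged from 1.96 to 7.63 TPM in labelled knockout libraries and from 2.89 to 9.0 TPM in Control libraries (-0.15, 0.21, edgeR adjusted p = 0.881).

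The co-receptors have no kinase of their own and present ligand to the signalling receptors. Eng (ENSMUSG00000026814.16, chr2:32646595-32682669, plus strand) stood at 15.99, 12.18, 15.67, 20.73 and 8.83 TPM in labelled knockout libraries 1 to 5, against 15.32, 15.82, 9.54, 11.06 and 12.72 TPM in Control libraries 1 to 5. Labelled knockout libraries held both the highest and the lowest value. The log2 fold change was 0.10 ± 0.19 (SE; edgeR adjusted p = 0.912). Tgfbr3 encodes betaglycan, which presents TGF-beta and binds inhibins. It ranged from 0.31 to 1.02 TPM in labelled knockout libraries and from 0.48 to 1.11 TPM in Control libraries (-0.24, 0.23, edgeR adjusted p = 0.821).

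On the scale set by all genes, 0 of the 10 receptors were called, against 0.357% of all tested genes. At an unadjusted p under 0.05 there was 1, Acvrl1 (unadjusted p = 0.00747), where 8.44% of all genes stood. The Wald test of DESeq2 and limma on log2(TPM + 1) also called 0 of the 10 and had 1 at an unadjusted p under 0.05. Of the 10, 3 had log2 fold changes above 0 and 7 below, and their median was -0.20 beside 0.00 over all tested genes. Within the first and second run of names the log2 ratio had the same sign for 5 receptors and opposite signs for the other 5, among them Tgfbr2, Bmpr2 and Acvr2a.

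**Figure D2:**
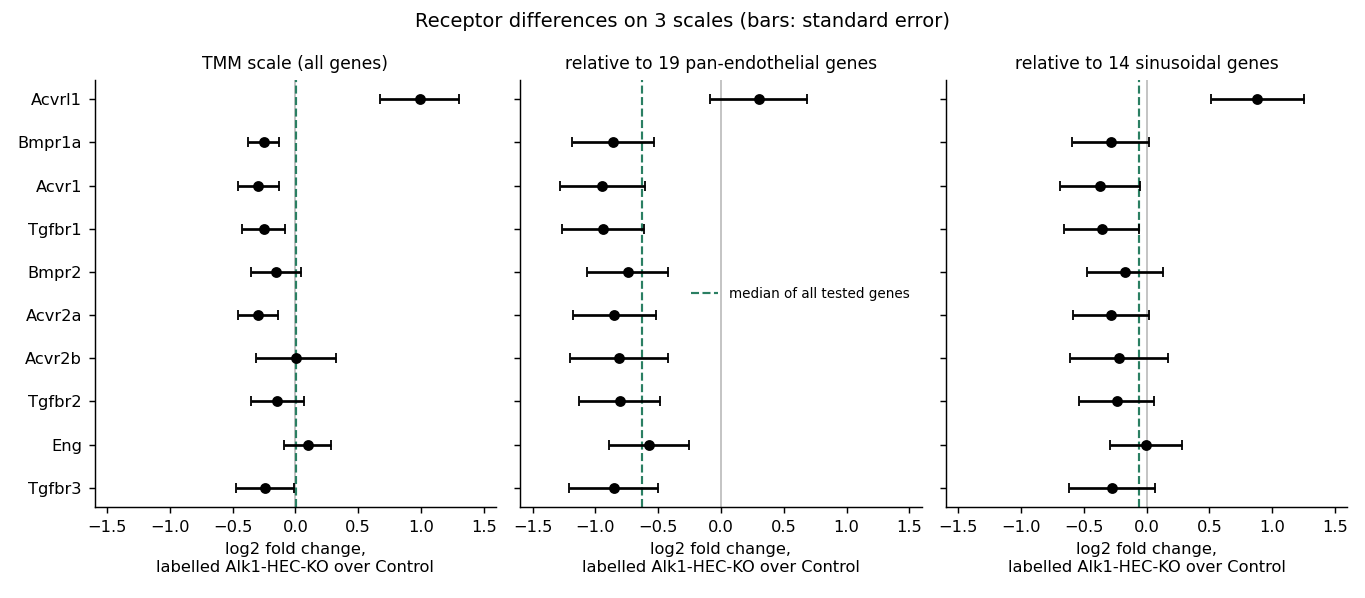
Log2 fold change of each receptor, labelled Alk1-HEC-KO over Control (points; bars are standard errors), with libraries scaled by all genes (left), by 19 pan-endothelial genes (middle) and by 14 sinusoidal genes (right); the dashed line is the median of all tested genes on that scale. Acvrl1 lies to the right of the dashed line in each panel, at 0.99, 0.30 and 0.88, and the other receptors lie closer to the line.

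Since ALK1 and endoglin belong mostly to endothelium, the receptors were set against endothelial genes of the same library. Genes found across endothelia, such as Pecam1 and Cdh5, had a median log2 fold change of 0.80, and genes of the liver's sinusoidal endothelium one of 0.06, with no gene of either list called. Pecam1, an adhesion molecule, stood at 5.12, 4.84, 5.72, 8.90 and 2.89 TPM in labelled knockout libraries 1 to 5 and at 3.03, 4.15, 1.74, 1.56 and 2.25 TPM in Control libraries 1 to 5 (log2 fold change 1.02, standard error 0.28, edgeR adjusted p = 0.259). Stab2, a scavenger receptor of sinusoids, had 5.48, 2.99, 5.58, 6.78 and 3.78 TPM in labelled knockout libraries, against 6.55, 6.58, 2.81, 3.10 and 3.44 TPM in Control libraries (0.07, 0.26, edgeR adjusted p = 0.953). Lyve1, another sinusoidal gene, ranged from 0.82 to 2.84 TPM in labelled knockout libraries and from 0.56 to 2.32 TPM in Control libraries (0.33, 0.40, edgeR adjusted p = 0.860). Of 19 pan-endothelial genes 17 pointed higher and 2 lower, and 13 had an unadjusted p under 0.05, against 8.44% of all tested genes. Of the 14 sinusoidal genes 9 pointed higher and 5 lower, and 1 had an unadjusted p under 0.05. Markers of Kupffer cells, the liver's macrophages, pointed the same way as the pan-endothelial genes: 10 of 10 pointed higher, 8 had an unadjusted p under 0.05 and 0 were called, at a median of 0.74. Their part in the values relative to endothelium was not tested. Cd34 and Emcn, genes of continuous endothelium, rose (edgeR adjusted p = 0.0118 for Cd34 and 0.00453 for Emcn). Cd34 stood at 1.55 to 7.69 TPM in labelled knockout libraries and 0.23 to 0.67 TPM in Control libraries, and Emcn at 3.45 to 6.90 TPM in labelled knockout libraries and 0.72 to 2.45 TPM in Control libraries. In all, 6 of 12 genes of continuous endothelium were called higher, against 0.186% of all tested genes, and 0 were called lower. The genes of this list were chosen with earlier results of these data known, so this count is only a description. Vwf, of the same list and named after its values were seen, pointed the other way (-1.16, 0.39, edgeR adjusted p = 0.379).

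Per library, the mean log2 TPM of the pan-endothelial genes minus that of the sinusoidal genes was -0.51 to -0.23 in labelled knockout libraries and -1.0 to -0.86 in Control libraries, without overlap. A receptor's level relative to endothelium therefore differs with the endothelial genes chosen. Scaling by the pan-endothelial genes moved the median log2 fold change of all tested genes to -0.63, so that a gene at 0 on this scale kept pace with those endothelial genes and a gene at -0.63 kept pace with the liver as a whole. Scaling by the sinusoidal genes moved that median to -0.06.

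Relative to pan-endothelial genes, Acvrl1 had a log2 fold change of 0.30 ± 0.39 (SE; edgeR adjusted p = 0.511), which is 0.93 above the median of all genes. Its log2 TPM minus the pan-endothelial mean was -1.76, -1.03, -1.73, -1.54 and -1.11 in labelled knockout libraries 1 to 5, and -1.44, -3.47, -2.07, -1.31 and -1.08 in Control libraries 1 to 5. On this scale 3 Control libraries lay within the labelled knockout range, while Control libraries 2 and 3 lay below it. Without Control library 2 the log2 fold change was 0.08, and scaled by Pecam1 and Cdh5 alone it was -0.002. Within runs of names the difference was 0.69 in the first and -0.25 in the second. Relative to sinusoidal genes the log2 fold change was 0.88 ± 0.37 (SE; edgeR adjusted p = 0.892, unadjusted p = 0.0215), and the groups overlapped.

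Eng was set against the same genes. Its log2 TPM minus the pan-endothelial mean was 2.04, 2.09, 1.96, 1.89 and 1.87 in labelled knockout libraries 1 to 5, against 2.44, 2.27, 2.54, 2.76 and 2.67 in Control libraries 1 to 5. All labelled knockout libraries lay below all Control libraries, as for 9.37% of all tested genes, whose groups did not overlap on this scale in either direction (exact permutation p = 0.00794 on log2(TPM + 0.1), 0.0847 adjusted over all tested genes, of which 36.1% had an unadjusted exact p under 0.05). The edgeR log2 fold change on the pan-endothelial scale was -0.58 ± 0.32 (SE; adjusted p = 0.148), close to the median of all genes at -0.63. The difference was -0.32 within the first run of names and -0.70 within the second. Relative to the sinusoidal mean, Eng stood at 1.5 to 1.80 in labelled knockout libraries and at 1.41 to 1.85 in Control libraries, and its log2 fold change on that scale was -0.002 ± 0.29. (SE) Whether Eng differed between the groups by another amount than Acvrl1 was not tested.

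**Figure D3:**
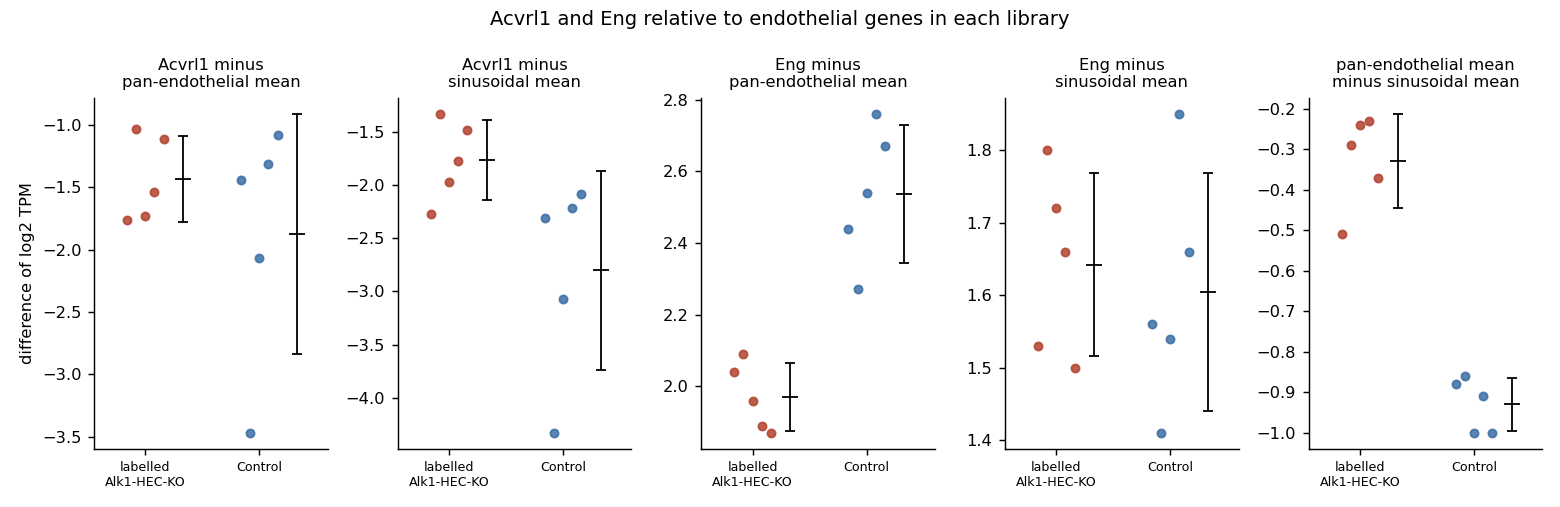
Log2 TPM of Acvrl1 and of Eng minus the mean log2 TPM of 19 pan-endothelial or 14 sinusoidal genes of the same library, and (right) the pan-endothelial minus the sinusoidal mean; points are libraries, labelled Alk1-HEC-KO left and Control right in each panel, bars the mean ± SD, and the vertical axes differ. Eng relative to pan-endothelial genes parts the groups (1.87 to 2.09 in labelled knockout libraries, 2.27 to 2.76 in Control libraries), as does the difference of the endothelial means, and Control library 2 lies lowest for Acvrl1.

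The same was seen in plain ratios of TPM. Eng amounted to 275 ± 34.3% of Pecam1 in labelled knockout libraries and to 542 ± 118% in Control libraries (SD, n = 5 each), and it ranged from 233 to 313% in labelled knockout libraries and from 381 to 709% in Control libraries. Set against Stab2 it amounted to 304 ± 63.6% in labelled knockout libraries and 308 ± 65.6% in Control libraries. Acvrl1 amounted to 26.6 ± 7.48% of Pecam1 in labelled knockout libraries and 29.8 ± 15.1% in Control libraries, and to 27.6 ± 7.86% of Cdh5 in labelled knockout libraries and 27.4 ± 13.5% in Control libraries. Set against Stab2, Acvrl1 amounted to 29.5 ± 10.3% in labelled knockout libraries and 16.7 ± 8.63% in Control libraries, with overlapping ranges of 21 to 46.5% in labelled knockout libraries and 4.5 to 27.6% in Control libraries. The ratio of Acvrl1 to Eng was 9.67 ± 2.35% in labelled knockout libraries and 5.25 ± 2.28% in Control libraries, and the range of labelled knockout libraries (7.21 to 12.7%) overlapped that of Control libraries (1.87 to 7.48%). These ratios describe the libraries and were not tested.

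The other 8 receptors lay somewhat below the median of all genes on the pan-endothelial scale, with log2 fold changes from -0.95 (Acvr1) to -0.74 (Bmpr2). None of the 10 receptors was called there, against 3.01% of all tested genes. An unadjusted p under 0.05 was found for 8 of 10, on a scale on which 39.8% of all tested genes had one, and the lowest adjusted p was 0.0722, for Tgfbr1. Acvr2a was the only receptor beside Eng whose groups did not overlap relative to pan-endothelial genes (exact permutation p = 0.00794, 0.0847 adjusted over all tested genes). On this scale the groups of 9.37% of all tested genes did not overlap, and 36.1% had an unadjusted exact permutation p under 0.05. Without labelled knockout library 2, 7 receptors were called on this scale, as were 6659 of all 12872 tested genes. Without Control library 1 the counts were 2 receptors and 922 genes. Leaving out Control libraries 1 and 2 together gave 7 receptors and 6045 genes. A scale set by Pecam1 and Cdh5 alone gave 9 receptors and 8674 genes. Receptors were thus called where many of all tested genes were called as well. Relative to sinusoidal genes none was called, against 0.443% of all tested genes, and no receptor's groups were without overlap, against 1.18%.

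Within the groups, Eng varied closely with the pan-endothelial genes of the libraries, and the values of most other receptors rested in part on 2 libraries. To describe this, each library's deviation from its group mean in log2(TPM + 0.1) was set against the same deviation of the mean of the pan-endothelial genes over the 10 libraries. Pearson's r was 0.95 for Eng (Spearman's rho 0.95), and it was 0.94 over 8 libraries without the 2 farthest, labelled knockout library 4 and Control library 2. For Bmpr2 r was 0.77 (rho 0.82; 0.60 without those 2) and for Tgfbr2 it was 0.67 (rho 0.67; 0.61). Acvr2a had an r of 0.63 (0.58 without those 2) and Tgfbr3 one of 0.61 (0.45). Tgfbr1, Bmpr1a and Acvr1 had r of 0.61, 0.51 and 0.43 over all 10 libraries, and 0.04, 0.19 and 0.21 without those 2. Acvrl1 had an r of 0.14 (rho 0.21) over all 10 libraries and 0.49 without those 2, so its place in the order rests on them. For Acvr2b r was 0.07 (rho 0.14; -0.01). The libraries share depth and tissue make-up, so these values are descriptions with no test.

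**Figure D4:**
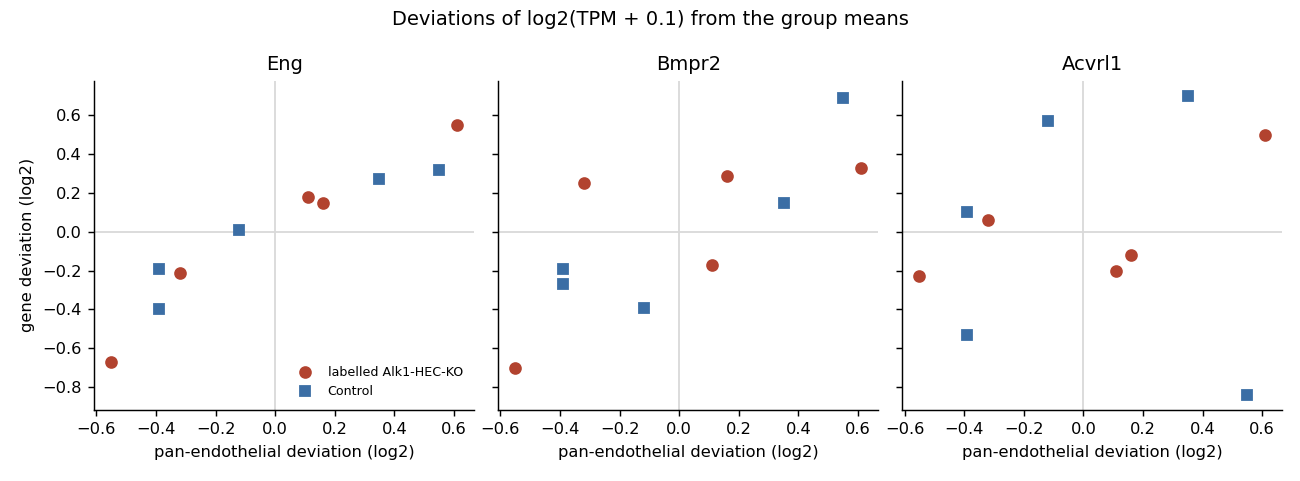
Deviation of Eng, Bmpr2 and Acvrl1 from their group means (vertical axis, log2) against the deviation of the mean over 19 pan-endothelial genes (horizontal axis, log2) in 5 libraries labelled Alk1-HEC-KO (circles) and 5 Control libraries (squares). The points of Eng lie along a line (r = 0.95), those of Bmpr2 less so (r = 0.77), and those of Acvrl1 scatter (r = 0.14, or 0.49 without Control library 2 at the lower right and labelled knockout library 4 at the upper right).

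Among themselves most of the receptors also varied together. Of the 45 pairs, 38 had a positive r of deviations and 28 an r above 0.5. The share over pairs of all tested genes was not computed, and shifts common to a whole library were not removed. These counts therefore describe the libraries and are not read as a trait of the receptors. The pair with the highest value was Bmpr2 and Acvr2a (0.91), followed by Acvr1 and Tgfbr3 (0.90), Acvr1 and Tgfbr2 (0.88) and Tgfbr2 and Tgfbr3 (0.87). The lowest was Acvr2a and Acvr2b (-0.41). Acvrl1 had its highest r with Acvr2b (0.52) and 0.30 with Eng.

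The genes most like Eng in their deviations were Wls, a carrier of secreted WNT proteins, Cmtm3, Gucy1b1, a subunit of the nitric oxide receptor guanylate cyclase, Crim1 and Mprip, each with an r of 0.97 over the 10 libraries. The median r with Eng was 0.88 over the pan-endothelial genes and 0.34 over all tested genes. Those most like Acvrl1 were Oas1g, of the interferon-induced oligoadenylate synthetases (0.94), Tsc2, the tuberous sclerosis gene encoding tuberin (0.93), Exosc5, an RNA exosome subunit (0.91), H2-K1, a class I histocompatibility gene (0.88), and Ppp2r3d (0.86). None of these 10 genes was called between the groups. All 10 were picked as those with the highest r among all tested genes, over only 10 libraries. Picking the highest of so many values can give a large r by selection alone. The r that selection alone would give was not computed, so the listed genes are not read as partners of Eng or Acvrl1. The median r with Acvrl1 was 0.12 over the pan-endothelial genes and 0.05 over all tested genes.

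The average transcript length that counts and TPM imply gave a view of which transcripts were counted. Since a gene's count divided by its TPM is proportional to the mean length of its transcripts, weighted by their use, a shift to shorter or longer transcripts moves that ratio. For Acvrl1, with 11 annotated transcripts, the log2 length relative to the library median was 0.28 ± 0.19 in labelled knockout libraries and 0.33 ± 0.27 in Control libraries (SD, n = 5 each; exact permutation p = 0.778). None of the 10 receptors was called after adjustment over all genes, against 0% of 12761 genes. The smallest exact permutation p for 5 against 5 is 0.0079, and too few genes were near it for any to pass adjustment. The absence of calls therefore does not show that transcript use was alike. An unadjusted p under 0.05 was found for 2.96% of all genes. Among the receptors it was found for Acvr1, whose log2 length was 0.18 ± 0.13 in labelled knockout libraries and 0.30 ± 0.02 in Control libraries (exact permutation p = 0.0159, adjusted p = 1). The Acvrl1 lengths varied more between libraries of a group than those of Tgfbr1, Bmpr2, Acvr2a or Tgfbr3, whose SD was at most 0.02 in either group.

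Other genes of the pathway were taken from 4 lists, the ligands, further receptors, SMAD proteins and regulators of receptors and SMADs. Of 55 listed genes 45 could be tested and 0 were called, against 0.357% of all tested genes. An unadjusted p under 0.05 was found for 6 of the 45, against 8.44% of all tested genes. Their median log2 fold change was 0.00, the same as over all tested genes.

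Of the 13 tested ligand genes, Tgfb1 and Bmp7 had the smallest p. Tgfb1, the main TGF-beta gene of many tissues, stood at 6.46, 5.76, 7.05, 11.33 and 4.59 TPM in labelled knockout libraries 1 to 5, against 3.69, 4.41, 2.94, 3.56 and 4.33 TPM in Control libraries 1 to 5. Bmp7 stood at 0.66, 0.26, 0.54, 0.45 and 0.46 TPM in labelled knockout libraries, against 1.2, 0.89, 0.71, 1.0 and 0.99 TPM in Control libraries. The groups of neither gene overlapped, Tgfb1 being higher and Bmp7 lower in labelled knockout libraries, as did those of 1.62% of all tested genes in either direction. The log2 fold change was 0.81 for Tgfb1 (standard error 0.21, edgeR adjusted p = 0.187) and -1.05 for Bmp7 (0.28, edgeR adjusted p = 0.230). DESeq2 called both (adjusted p = 0.0321 for Tgfb1 and 0.030 for Bmp7), and over 24 alternatives the adjusted p ran from 0.0218 to 1 and from 0.030 to 1. Tgfb1 is also made by macrophages and other leukocytes. The 10 Kupffer cell markers, all with log2 fold changes above 0, summed to 202 to 397 TPM in labelled knockout libraries and 127 to 202 TPM in Control libraries. The 5 tested leukocyte markers of 9 listed all pointed higher, with sums over the list of 6.82 to 25.0 TPM in labelled knockout libraries and 2.92 to 6.42 TPM in Control libraries. No Kupffer cell marker was at 0 in any library, and S100a8, a neutrophil marker, was at 0 in the lowest Control library. Their part in the Tgfb1 result was not tested.

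The circulating ligands of ALK1 did not pass. Gdf2, which encodes BMP9 and is expressed in the liver, had 2.41 to 4.62 TPM in labelled knockout libraries and 2.17 to 4.5 TPM in Control libraries (log2 fold change 0.02, standard error 0.21, edgeR adjusted p = 0.985). Bmp10 had 0.17 to 0.60 TPM in labelled knockout libraries and 0.32 to 0.74 TPM in Control libraries (-0.57, 0.30, edgeR adjusted p = 0.636). The most abundant ligand gene was Inhbc, an activin subunit gene of hepatocytes, at 33.9 ± 12.1 TPM in labelled knockout libraries and 37.3 ± 6.73 TPM in Control libraries (-0.23, 0.18, edgeR adjusted p = 0.776). On the pan-endothelial scale 2 pathway genes of 45 were called, against 3.01% of all tested genes. Both were ligands and lower in labelled knockout libraries, Bmp7 (-1.72) and Inhba (-1.32), another activin subunit gene. On this scale 43 of the 45 pathway genes pointed lower, as did 12073 of all 12872 tested genes. With libraries scaled by all genes Inhba did not pass (-0.67, 0.26, edgeR adjusted p = 0.495), and its groups overlapped in TPM.

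Among further receptors, Acvr1b, the type I receptor ALK4 for activins, had 1.39 to 4.72 TPM in labelled knockout libraries and 1.42 to 2.59 TPM in Control libraries (0.31, 0.27, edgeR adjusted p = 0.796). Amhr2, the receptor for anti-Müllerian hormone, averaged 0.560 TPM in labelled knockout libraries and 0.468 TPM in Control libraries and had too few counts to be tested. Bmpr1b and Acvr1c, further type I receptors, were at or near 0 in both groups. The most abundant gene of this list was the BMP co-receptor gene of hepatocytes Hfe2, hemojuvelin, at 39.5 ± 13.8 TPM in labelled knockout libraries and 29.3 ± 7.75 TPM in Control libraries (0.35, 0.26, edgeR adjusted p = 0.749).

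Of the 8 SMAD genes 4 pointed higher and 4 lower. Smad4, the SMAD shared by all branches of the pathway and the most abundant of the list, averaged 7.07 ± 2.15 TPM in labelled knockout libraries and 8.17 ± 3.04 TPM in Control libraries (-0.21, 0.15, edgeR adjusted p = 0.746). The smallest p belonged to Smad5, which carries BMP signals (-0.23, 0.12, edgeR adjusted p = 0.664), and Smad2, which carries TGF-beta and activin signals (-0.29, 0.17, edgeR adjusted p = 0.690). Among the 19 regulators the smallest p belonged to Tab1, which binds the kinase TAK1 (0.86, 0.32, edgeR adjusted p = 0.470), and Smurf2, a ubiquitin ligase for receptors and SMADs (-0.25, 0.10, edgeR adjusted p = 0.495). Ppm1a, a phosphatase and the most abundant regulator, had a log2 fold change of -0.23 ± 0.14. (SE)

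**Figure D5:**
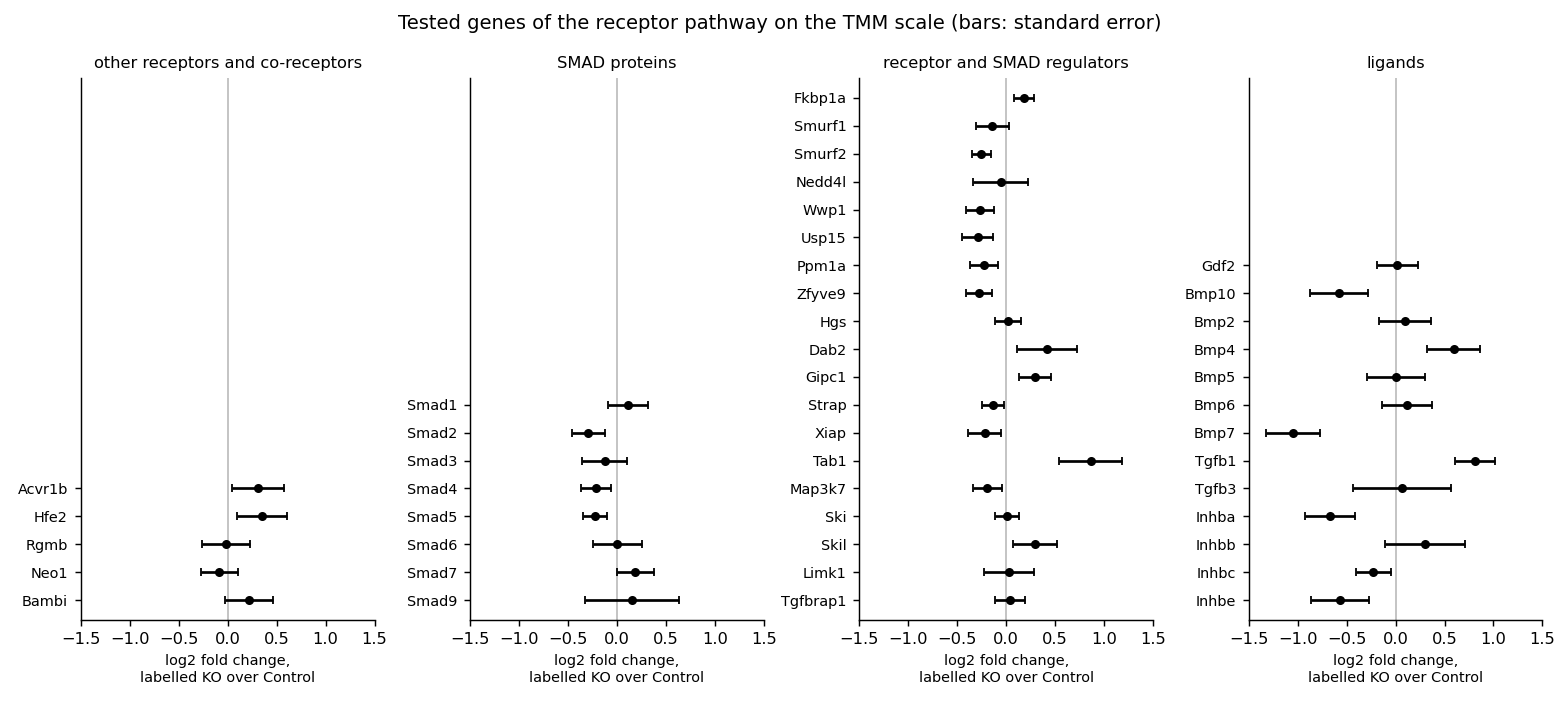
Log2 fold change, labelled Alk1-HEC-KO over Control, of the tested genes of the 4 pathway lists with libraries scaled by all genes; points are genes and bars standard errors. Most genes lie within 0.5 of 0, and Bmp7 (-1.05), Tab1 (0.86) and Tgfb1 (0.81) lie farthest from it; no gene shown was called.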

How the data were processed

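Whole-liver RNA-seq of 10 libraries, 5 per group by the genotype label, was used. Per the submitters' processing notes, reads were handled with Trim Galore 0.6.4 and kallisto 0.4.6 against GRCm38.p6; strand use and the step to genes are not given in the sources used here. Estimated counts and TPM per gene were deposited by the authors. The deposited estimated counts were rounded to whole numbers, and symbols came from GENCODE (GRCm38) for 55144 of 55385 IDs. Genes passing filterByExpr of edgeR 4.0.16 (R 4.3.3), 12872 in all, were scaled by TMM (factors 0.869 to 1.11) and tested by the robust quasi-likelihood test with Benjamini-Hochberg adjustment. For values relative to endothelium the same genes were tested with each library scaled by the geometric mean of 19 pan-endothelial genes, or of 14 sinusoidal genes. Standard errors come from the quasi-likelihood F. Levels are the deposited TPM.

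DESeq2 1.42.0 and limma 3.58.1 served as alternatives. The members and gene lists were chosen with earlier results of these data known. Besides the receptors, the text names from each pathway list every called gene, the 2 smallest p, the most abundant gene and further receptors, plus Gdf2 and Bmp10, 6 endothelial markers where needed, and for Acvrl1 and Eng the 5 genes most alike. Inhba, Vwf, S100a8, Saa1, Fos and albumin were named as context after their values were seen. The fits of edgeR, DESeq2 and limma were checked on simulated counts, and the exact permutation test on simulated normal values. Scaling by reference genes was checked with genes set not to change, which the pan-endothelial genes here need not match.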

Additional observations from a re-analysis of the deposited data

How the results depend on the processing

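No receptor was called on the scale of all genes under any of 24 alternatives, and the log2 fold change of Acvrl1 was positive in each, from 0.51 (limma on log2(TPM + 1), where the pseudocount shrinks it) to 1.22 (leaving out Control library 1), with adjusted p from 0.121 to 1. Its TPM difference of 0.691 was 0.551 to 0.786 with each library left out. The number of genes called over all genes was 119 with no filter on low counts, 152 by DESeq2, 5 with the run of names as a covariate, 30 without libraries with Saa1 above 1000 TPM, 17 without those with Fos above 20 TPM, and 33 to 83 with each library left out (83 without labelled knockout library 1). Pathway genes called numbered 1 with no filter (Tgfb1) and 2 by DESeq2 (Tgfb1 and Bmp7); over 24 alternatives the adjusted p ran from 0.0218 to 1 for Tgfb1 and from 0.03 to 1 for Bmp7. Relative to pan-endothelial genes, 9 receptors were called with the Pecam1 and Cdh5 scale, where Acvrl1 was at -0.002, 7 without libraries with high Fos, 0 to 7 with each library left out, and 0 by the exact permutation test, an alternative chosen after seeing the data. Of all 12872 tested genes, 8674 were called with the Pecam1 and Cdh5 scale and 6045 without libraries with high Fos. With each library left out 154 to 6659 genes were called, and by the exact permutation test 0. On the scale of all genes 4 receptors near 0 changed sign: Acvr2b with no filter (-0.01), without the high-Fos libraries (-0.27) and with each library left out (-0.19 to 0.20), Tgfbr2 with the run as a covariate (0.11) and with each library left out (-0.24 to 0.008), Bmpr2 without the high-Fos libraries (0.12) and with each library left out (-0.26 to 0.01), and Eng without the high-Saa1 libraries (-0.07) and with each library left out (-0.07 to 0.21). The cause was not tested.

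The groups share replicate numbers in the labels. Deviations of same-numbered libraries correlated at 0.28, 0.08, -0.10, -0.04 and 0.11. Labelled knockout libraries 1 and 2 correlated best with the Control library of their own number, and libraries 3, 4 and 5 did not. These values cannot settle whether the numbers pair the libraries. With the replicate number as a block 40 genes and 0 receptors were called, and Acvrl1 had log2 fold changes of 1.02 and, relative to pan-endothelial genes, 0.37.

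Depth limits Acvrl1 and Acvr2b most, with as few as 18 and 25 counts in a library. The last run of names holds no Control library, so for its 3 libraries run and group cannot be told apart.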
